A study of Mus musculus with 8 samples.

Results

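Oligodendrocytes, the myelin-forming cells of the brain, were picked out of single-cell RNA libraries of mouse cortex by their own transcripts, and 4333 of the 50254 cells kept from 7 libraries were such cells. A barcode was kept with at least 500 genes and under 15% of its unique molecular identifiers (UMIs, each 1 counted RNA molecule) from mitochondrial genes. It was an oligodendrocyte where the summed UMIs of Cldn11, Mag, Mog and Mobp reached 20 per 10000 UMIs of the cell. Sums for endothelial cells (Cldn5, Flt1, Pecam1), microglia (C1qa, C1qb, Ctss) and mural cells (Vtn, Acta2) each had to stay under 20. The levels of Cldn11, Mag, Mog and Mobp chose the cells, so they are descriptions here and carry no test. At most 7 barcodes per library lay between 15 and 20 per 10000 and missed the threshold, and at most 6 per library lay between 20 and 25 and passed it, against median sums of 84.2 to 116 among the oligodendrocytes.

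The study examined laminin chains of the vascular basement membrane, the protein sheet around cerebral blood vessels. It had 2 experiments on 8-week-old mice perfused with ice-cold buffer, each with its own wild type (WT). In the first, Lama4-/- mice, labelled as lacking the laminin alpha 4 chain, stood beside WT mice. In the second, Tek-Cre:Lama5-/- mice (Lama5 KO below), which lose the laminin alpha 5 chain where Tek-Cre is active, in the endothelial lineage, stood beside other WT mice. The cortex was digested with papain, DNase and Liberase, and myelin was removed by centrifugation through albumin, a step that can also take away oligodendrocytes. Each group was a pool of 3 mice split into a pair of 10x Chromium 3' libraries, so a test between groups compares pools, and its p measures only the spread between libraries of 1 pool. The files of the 2 Lama4-/- samples held identical values and were counted as 1 library, which leaves that group with no replicate.

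Oligodendrocytes wrap axons in a compact, lipid-rich membrane in which myelin basic protein (Mbp) holds the layers together. They are coupled to one another and to astrocytes by connexins, feed axons with metabolites, hold much of the brain's iron in ferritin, and respond to laminins through integrin and dystroglycan receptors while they mature. A part of the population carries complement and serine protease inhibitor transcripts (C4b, Serpina3n) in injury, ageing and demyelination, and is then called reactive.

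The 4 libraries of the Lama5 experiment held 1231 and 1100 oligodendrocytes in WT and 828 and 930 in Lama5 KO. The Lama4 experiment gave far fewer, 98 and 94 in WT and 52 in Lama4-/-. The summed UMIs behind the values were 10138335 and 8329331 in WT and 5292779 and 5623432 in Lama5 KO, but only 1104973 and 905932 in the WT and 619837 in the Lama4-/- library of the other experiment. The median oligodendrocyte held 7321 and 6845.5 UMIs in those WT libraries and 5598.5 and 5108 in the Lama5 KO, so the Lama5 KO cells were shallower. No doublet caller was run. Between 6.93% and 22.4% of the barcodes over the oligodendrocyte threshold were set aside for also passing another gate, the highest share in Lama4-/-. The first WT library of the Lama5 experiment shared 1 oligodendrocyte barcode with each Lama5 KO library, and no other pair shared any.

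The label held against markers outside the gate. The 20 genes with the largest fold over all other kept cells were 55.4 to 74.5 times higher in oligodendrocytes. In single libraries their folds ran from 27.4 to 1024. The gate genes Cldn11, Mag, Mog and Mobp were among the 20, and their fold is set by the choice of cells. Outside the gate, the 20 included Opalin, a myelin paranode glycoprotein, Ermn, a cytoskeletal protein of myelin, and Sox10, the transcription factor of the lineage. Opalin averaged 1182 CPM (UMIs per 1000000 UMIs of the oligodendrocytes in a library) against 16.6 CPM in the other cells. Mbp averaged 4981 against 81.8 CPM. Pdgfra, the receptor that marks precursor cells, was at 0 to 0.356 CPM in the oligodendrocytes of all 7 libraries. The 7 precursor markers together made 10.5 to 16.6 CPM in the Lama5 experiment, but 28.1 and 50.8 CPM in WT and 135.5 CPM in Lama4-/- in the other. The 8 markers of committed precursors and newly formed cells, among them Bcas1 and Enpp6, summed to 452 to 905 CPM. Bcas1 alone made 243 to 392 CPM and was also among the 20 genes above, so the sum does not single out newly formed cells. Of the same markers, Gpr17 was detected in 1.02% to 5.77% of cells and Neu4 in at most 1.92%. Enpp6 was detected in 27.6% to 41.8% of cells and Bcas1 in 69.0% to 90.4%. The 5 Schwann cell markers searched, which would mark peripheral myelin, summed to at most 4.8 CPM with 2 to 4 of the 5 at 0. Myelin genes thus led in every library. The markers Pdgfra, Gpr17 and Neu4 of earlier stages were rare, whereas Enpp6 and Bcas1 were not.

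The Lama4 experiment needs a caution before its values are read. In 4 and 2 WT and 4 Lama4-/- cells, Cldn11 was the only gate gene with a UMI, a pattern found in 0 cells of the Lama5 experiment. Cldn11 is also made by arachnoid barrier cells, and 5 fibroblast and arachnoid markers summed to 57.02 and 11.04 CPM in WT and 122.6 CPM in Lama4-/-, against 0.5 to 1.4 CPM in the Lama5 experiment. Requiring a UMI of at least 3 of the 4 gate genes left 92, 91 and 45 cells there (stricter cells below), with 0 to 1.12 CPM of the fibroblast and arachnoid markers and 24.1, 48.1 and 6.20 CPM of the precursor markers. The markers of committed precursors and newly formed cells made 496, 670 and 536 CPM in these stricter cells. The first WT library of that experiment also held 7261 CPM of haemoglobin transcripts in its oligodendrocytes, against 12.9 to 767.5 CPM in the other 6 libraries.

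In endothelial cells, where the targeted genes are mainly made, Lama4 was almost absent from Lama4-/-. Lama5 was lower in the Lama5 KO but still present. Lama4 was at 45.5 and 44.3 CPM in the WT and at 0.057 CPM in the Lama4-/- endothelial cells. Lama5 was at 42.5 and 41.7 CPM in WT endothelial cells and at 23.2 and 24.8 CPM in those of the Lama5 KO. What the remaining Lama5 UMIs stand for was not tested. Lama4 in the same endothelial cells was at 30.5 and 31.5 CPM in WT and 51.1 and 45.9 CPM in Lama5 KO. Oligodendrocytes of the Lama5 experiment carried little of either transcript, at most 0.756 CPM of Lama4 and 1.68 CPM of Lama5. In the Lama4 experiment, Lama4 was at 9.95 and 3.31 CPM in WT (11 and 3 UMIs) and Lama5 at 20.97 CPM in Lama4-/- (13 UMIs). In the stricter cells there, Lama4 was at 0.963 and 1.12 CPM in WT and Lama5 at 0 in Lama4-/-.

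Oligodendrocytes made up a smaller share of the Lama5 KO libraries than of their WT libraries, but the exact permutation test used cannot pass with 2 libraries a group. Of the kept cells, they were 14.4% (95% exact binomial interval 13.7 to 15.1%) and 12.9% (12.2 to 13.6%) in WT, and 9.93% (9.30 to 10.6%) and 10.9% (10.2 to 11.6%) in Lama5 KO. The groups did not overlap, and the mean share was 13.6% ± 1.05 (SD, n = 2) in WT and 10.4% ± 0.666 (SD, n = 2) in Lama5 KO. An exact two-sided permutation test gave p = 0.3333, the smallest this design allows. Per 100 endothelial cells, the count was 23.0 and 20.4 in WT and 16.4 and 18.2 in Lama5 KO. In the Lama4 experiment the share was 1.75% (1.42 to 2.13%) and 1.76% (1.43 to 2.15%) in WT and 0.971% (0.726 to 1.27%) in the single Lama4-/- library, whose interval lies below both. The stricter cells made up 1.64% (1.33 to 2.01%), 1.71% (1.38 to 2.09%) and 0.840% (0.614 to 1.12%). Intervals cover counting error only, and the myelin removal, the digestion and the yield of vessels all bear on such a share; their part was not tested.

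**Figure D1:**
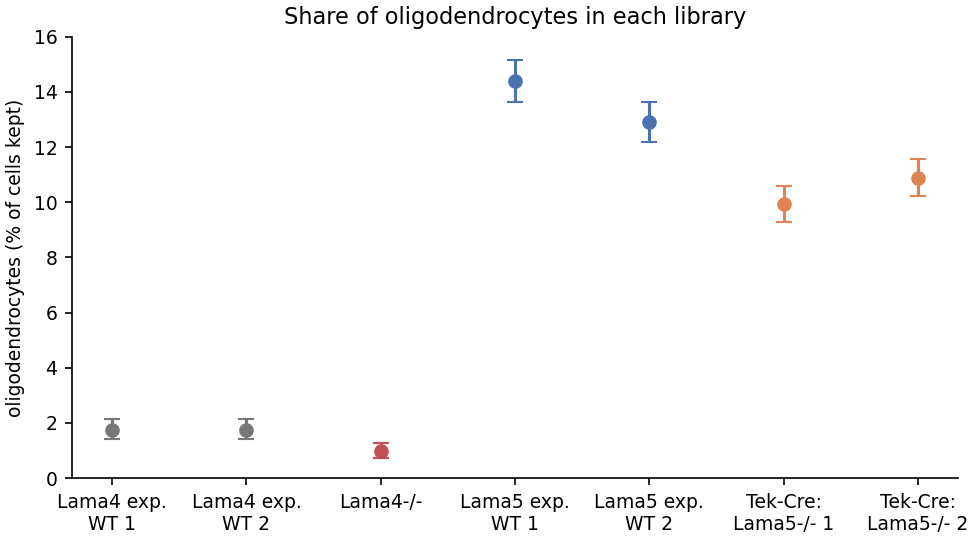
Share of oligodendrocytes among kept cells (y axis, percent) in each of the 7 libraries (x axis), with 95% exact binomial intervals as bars. The WT libraries of the Lama5 experiment sit at 14.4% and 12.9%, the Lama5 KO libraries at 9.93% and 10.9%, and the 3 libraries of the Lama4 experiment at 1.76% or below.

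Which oligodendrocyte genes differed between Lama5 KO and WT was asked with the UMIs of all oligodendrocytes summed per library. The abundant myelin transcripts kept close to their WT levels, while 2 reactive genes, C4b and Serpina3n, fell about 5-fold. The tubulin genes Tuba1a, Tubb3 and Tubb4a and the kinase gene Sgk1 fell by less, and genes such as Brd2, Atf4 and the ferritin gene Fth1 rose by small amounts. Of 11089 genes tested, 1138 passed an adjusted p of 0.05 (10.3%), with 578 higher (5.21%) and 560 lower (5.05%) in Lama5 KO. Most differences were small. The median absolute log2 fold change of the genes that passed was 0.31, and only 82 reached a log2 fold change of 1 in either direction. Adjusted p-values below come from edgeR's quasi-likelihood test over all genes tested; CPM are plain shares of the UMIs, whereas fold changes use the TMM library scaling. DESeq2, given all 18338 genes with a UMI, called 413 (212 higher, 201 lower). Its counts in the gene lists below stand beside 413 of 18338, not beside 10.3%.

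Several signs that are not particular to oligodendrocytes moved with the Lama5 groups. Gm42418, a transcript within the ribosomal RNA repeat region (GRCm38 17:39846958-39848788), was at 26642 and 26605 CPM in WT and 52765 and 56996 CPM in Lama5 KO (log2 fold change 1.10, SE 0.0229, adjusted p = 1.8e-25), and it rose by 0.98 in endothelial cells and 0.91 in astrocytes as well. The overlapping antisense AY036118, whose reads cannot be told apart from it without strand, rose by 0.46. Lars2, a mitochondrial leucyl-tRNA synthetase gene, rose from 535 and 514 CPM to 834 and 872 CPM. Ttr, the choroid plexus transthyretin, had no UMI in WT oligodendrocytes and was at 56.7 and 82.5 CPM in Lama5 KO. It was found in 26.3% and 22.2% of Lama5 KO oligodendrocytes and in 25.4% and 20.5% of the endothelial cells beside them, so it stood at the level of background RNA. Hbb-bs, a haemoglobin gene, was detected in 59.1% and 60.5% of WT and 12.3% and 9.57% of Lama5 KO oligodendrocytes, with like shares in endothelial cells. Of 4 Y-linked genes tested, 3 fell, by 0.30 to 0.50, in oligodendrocytes and by 0.39 to 0.49 in endothelial cells, and Kdm5d (-0.41, adjusted p = 0.080) did not pass in oligodendrocytes. The part of these signs in the results below was not tested.

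C4b, complement component 4B, fell strongly. It was at 55.9 and 53.3 CPM in WT (567 and 444 UMIs) and at 11.7 and 9.42 CPM in Lama5 KO (62 and 53 UMIs). Both Lama5 KO libraries lay far below both WT libraries, at means of 54.6 ± 1.85 and 10.6 ± 1.62 CPM (SD, n = 2 each), a 4.97-fold difference in the fit (log2 fold change -2.31, SE 0.116, adjusted p = 2.1e-15). The fall was present in astrocytes too, from 57.4 and 53.4 to 11.9 and 16.2 CPM (log2 fold change -1.94, adjusted p = 0.00023). It was not called in endothelial cells, where C4b was at 0.9 to 2.2 CPM (log2 fold change -0.52, adjusted p = 0.31). The difference between the oligodendrocyte and endothelial effects passed the test (-1.83, SE 0.37, adjusted p = 0.014), and that between oligodendrocytes and astrocytes did not (-0.29, adjusted p = 0.83). In the oligodendrocytes of the Lama4 experiment, C4b was at 3.62 and 27.6 CPM in WT and 11.3 CPM in Lama4-/- (3.85, 27.97 and 12.4 CPM in the stricter cells), so the level of the Lama5 KO lies between those 2 WT libraries. The levels in that experiment rest on 4 and 25 UMIs in WT and 7 in Lama4-/-. The gene lies on the minus strand at GRCm38 17:34728380-34743882.

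Serpina3n, a secreted serine protease inhibitor that marks reactive glia, went the same way. It was at 16.3 and 13.6 CPM in WT (165 and 113 UMIs) and at 3.21 and 2.13 CPM in Lama5 KO (17 and 12 UMIs), with no overlap (log2 fold change -2.43, SE 0.239, adjusted p = 1.4e-08). It was at 2.21 to 4.53 CPM in the 3 libraries of the Lama4 experiment, and at 2.24 to 4.82 CPM in their stricter cells. Only 5 and 2 UMIs in WT and 2 UMIs in Lama4-/- stand behind these levels. C4b and Serpina3n both have close copies in the genome, and how the authors' counting assigned reads shared with a copy is not given in the sources used here. The 250 bases before the Serpina3n start site are shown because this is the gene with the strongest fall among the listed reactive genes (plus strand, RefSeq, GRCm38.p6, chr12:104406458-104406707). The capitals mark the only match to ACANNNTGT, the core of the sequence bound by the glucocorticoid receptor, 76 bases before the start site.
Serpina3n: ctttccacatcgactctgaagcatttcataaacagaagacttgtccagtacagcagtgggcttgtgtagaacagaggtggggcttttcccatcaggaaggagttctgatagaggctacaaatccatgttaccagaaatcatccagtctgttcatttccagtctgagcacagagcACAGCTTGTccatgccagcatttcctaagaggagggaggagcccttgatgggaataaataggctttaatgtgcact
That motif was searched on both strands in the same window of all genes in the RefSeq table, and 1917 of 32851 windows (5.84%) held it. TTCNNNGAA, the core bound by STAT factors, was not in the Serpina3n window and was in 7.02% of windows. A match is a run of letters and does not show binding.

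Most C4b UMIs of the WT libraries came from few cells. Cells with 3 or more C4b UMIs, a limit set after the values had been seen, were 41 of 1231 (3.33%, 95% exact binomial interval 2.40 to 4.49%) and 34 of 1100 (3.09%, 2.15 to 4.29%) in WT. They were 4 of 828 (0.483%, 0.132 to 1.23%) and 3 of 930 (0.323%, 0.0666 to 0.940%) in Lama5 KO. These cells carried 85.7% and 83.1% of all C4b UMIs of the WT libraries and 25.8% and 26.4% of those of the Lama5 KO libraries. The highest count in a cell was 48 and 39 in WT and 5 and 8 in Lama5 KO. The other oligodendrocytes, which by this limit hold at most 2 UMIs each, had 8.35 and 9.38 CPM in WT and 8.75 and 7.01 CPM in Lama5 KO. Since the limit itself caps these levels, they do not show that other cells were unchanged. With every cell thinned to 3000 UMIs, 22 of 1197 (1.84%) and 21 of 1057 (1.99%) WT cells kept 3 or more, against 1 of 789 (0.127%) and 0 of 859 in Lama5 KO, where 0 allows a share of up to 0.349%. In the Lama4 experiment, 0 of 98 and 4 of 94 (4.26%) WT cells and 0 of 52 Lama4-/- cells reached 3 UMIs, and the zeros allow up to 3.06% and 5.77%. The cells cannot be assigned to mice, so whether they came from all 3 animals of the WT pool or from fewer cannot be told apart.

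**Figure D2:**
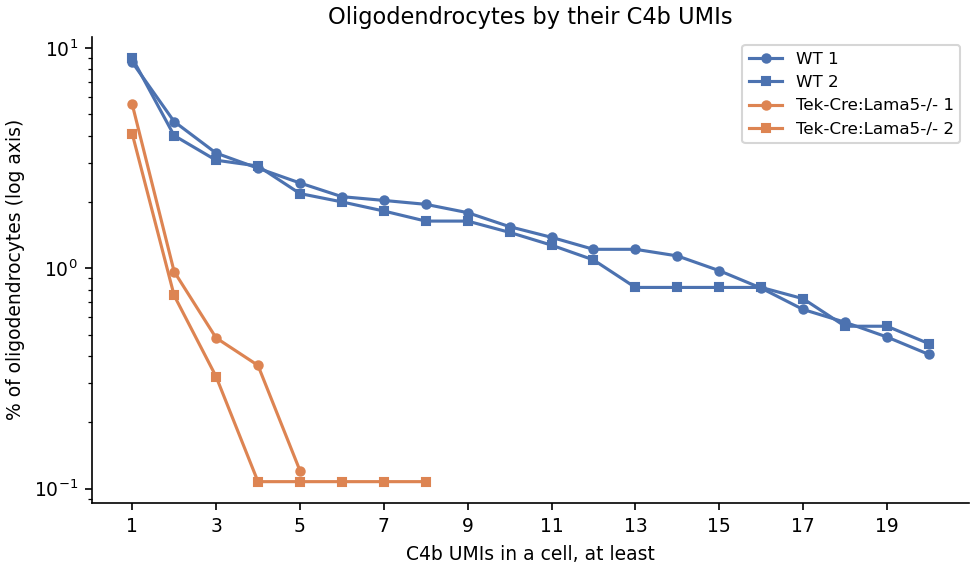
Percent of oligodendrocytes (y axis, log scale) with at least the number of C4b UMIs on the x axis, for the 4 libraries of the Lama5 experiment; a line ends where no cell is left. The WT lines fall slowly from 8.61% and 9% at 1 UMI, whereas the Lama5 KO lines start at 5.56% and 4.09% and end at 5 and 8 UMIs.

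The C4b-rich cells of the WT libraries shared other transcripts, given here as ratios to WT cells with no C4b UMI in the same library and as descriptions, because the cells were picked by their values. Serpina3n was 138 and 120 times higher, and it was detected in 23 of 41 and 14 of 34 of these cells. The cytokine signalling genes Socs3 (11.2 and 7.14 times) and Stat3 (2.78 and 2.26 times) were higher, as were the antigen presentation genes H2-D1 (3.84 and 7.61 times) and B2m (3.78 and 5.95 times). Some immediate early genes, which also respond to digestion, were higher to a like extent. Fos was at 4.16 and 6.79, Egr1 at 3.64 and 5.09 and Junb at 3.12 and 4.27 times. Other genes of the immediate early and dissociation list moved less, such as Jun (1.30 and 2.08), Jund (1.00 and 1.29) and Nr4a1 (1.26 and 1.20). Hspa1b of that list was lower (0.512 and 0.650). The part of these genes in this profile was not tested. Klk6, a kallikrein protease of mature oligodendrocytes, was 16.7 and 7.89 times higher, and it was detected in 53.7% and 35.3% of the C4b-rich cells against 10.3% and 11.3% of the others. Ptgds, prostaglandin D2 synthase, was lower at 0.449 and 0.362 times, and Sgk1 at 0.611 and 0.597 times. The myelin gene Mbp was near equal (1.01 and 0.93 times). The C4b-rich cells were deeper, with medians of 9490 and 9939 UMIs against 7282.5 and 6811 in the rest, so counting alone places more of them over a fixed number of UMIs.

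WT oligodendrocytes with Klk6 held less Ptgds, but the fixed list of Ptgds group genes was split. WT cells with 2 or more Klk6 UMIs, 71 and 72 per library, had 20.7 and 16.3 times the S100b, 23.0 and 18.8 times the Hopx and 5.33 and 6.18 times the Anxa5 of cells with none. The same cells had 0.137 and 0.172 times the Ptgds and 0.207 and 0.257 times the Opalin, while Mbp was level at 1.00 and 1.01 times. Il33 (0.282 and 0.272) and Grm3 (0.560 and 0.600) of the Ptgds group were lower too. Hapln2 (2.40 and 2.05), Apod (2.22 and 1.85), Trf (1.99 and 1.97) and Dock5 (1.20 and 1.15) of that group were higher. Car2 was near level (0.984 and 0.970). Depth was not matched here, and a limit of 2 UMIs favours deeper cells. Klk6 itself was detected in 11.8% and 12% of WT and 10.3% and 8.39% of Lama5 KO oligodendrocytes. Its level was 73.6 and 76.8 CPM in WT and 62.9 and 60.6 CPM in Lama5 KO (log2 fold change -0.22, adjusted p = 0.028), and this small fall missed the threshold with DESeq2 (adjusted p = 0.267) and on leaving out either Lama5 KO library or the second WT library (adjusted p = 0.052 to 0.183). Of 9 genes of the Klk6 group, Hopx (log2 fold change 0.47) and S100b (0.17) rose and Klk6 and Pmp22 (-0.22) fell, while DESeq2 called 1 higher and 1 lower. Of 9 genes of the Ptgds group, 4 fell (Car2, Grm3, Opalin and Hapln2) and 0 rose, and Ptgds itself was at 14834 and 13697 CPM in WT and 14454 and 13656 CPM in Lama5 KO. Beside the edgeR counts of both groups stand 5.21% of all genes tested that rose and 5.05% that fell.

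A group of 18 tested genes, with symbols starting in Tuba, Tubb, Tubd, Tube or Tubg, was chosen after its values were seen. Such symbols can include tubulin complex genes beside the tubulins. Of the 18, 3 fell and 1, Tuba4a, rose, with a median log2 fold change of -0.04. Of all genes tested, 5.05% fell and 5.21% rose. DESeq2 called the same 3 lower and 0 higher. Tuba1a, an alpha-tubulin of growing cell processes, was at 831 and 841 CPM in WT and 508 and 511 CPM in Lama5 KO, without overlap (log2 fold change -0.65, SE 0.029, adjusted p = 1.1e-16). Tubb3, a beta-tubulin best known from neurons, was at 69.2 and 81.0 CPM in WT and 39.5 and 35.7 CPM in Lama5 KO (log2 fold change -0.93, SE 0.0859, adjusted p = 3.9e-09). With cells thinned to 1000 UMIs, Tubb3 was found in 6.97% and 7.54% of WT and 3.67% and 2.94% of Lama5 KO oligodendrocytes, against at most 0.208% of endothelial cells. Tubb4a, the beta-tubulin of myelinating cells, was at 1357 and 1358 CPM in WT and 989 and 992 CPM in Lama5 KO (log2 fold change -0.39, SE 0.0251, adjusted p = 1.0e-12). The Tuba1a fall was larger in oligodendrocytes than in endothelial cells by 0.49 (adjusted p = 3.0e-05) and smaller than in astrocytes, where the log2 fold change was -1.45 (adjusted p of the difference = 0.00038). The neuron markers searched summed to at most 48.7 CPM in any library of oligodendrocytes.

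Sgk1, a serum- and glucocorticoid-induced kinase strongly expressed in oligodendrocytes, fell there and rose in endothelial cells. It was at 1953 and 1990 CPM in WT and 1345 and 1313 CPM in Lama5 KO oligodendrocytes (log2 fold change -0.51, SE 0.0241, adjusted p = 5.5e-16). In endothelial cells it rose by 0.40 on the log2 scale (adjusted p = 9.4e-10), and the difference between the effects was -0.94 (SE 0.04, adjusted p = 2.0e-10). With 1000 UMIs per cell, Sgk1 was found in 83.7% and 81.1% of WT and 67.2% and 67.8% of Lama5 KO oligodendrocytes. In the Lama4 experiment it was at 1845 and 2020 CPM in WT and 1486 CPM in Lama4-/-, and in the stricter cells at 1962, 2043 and 1869 CPM. Fkbp5, another glucocorticoid-induced gene and a co-chaperone of the receptor, fell from 27.7 and 25.5 to 14.9 and 15.5 CPM (log2 fold change -0.75, SE 0.12, adjusted p = 6.7e-05). It fell by 0.60 in endothelial cells as well, and its level was 10.1 times higher in another cell class than in oligodendrocytes.

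The other genes that fell most among those at 50 CPM or more had mixed functions. They were Arrdc2 (131 and 143 to 81.6 and 87.0 CPM), an arrestin-domain gene, Arl4d (127 and 135 to 84.5 and 78.1 CPM), a small GTPase, and Pdxk (170 and 166 to 109 and 107 CPM), the pyridoxal kinase. Also lower were Polr3e (323 and 349 to 215 and 228 CPM), a subunit of RNA polymerase III, Tma16 (200 and 210 to 136 and 135 CPM), a ribosome biogenesis factor, Slc25a13 (log2 fold change -0.50), a mitochondrial aspartate-glutamate carrier, and Pnisr (-0.49), a splicing-related gene. In each, both Lama5 KO libraries lay below both WT libraries, as the rule for naming them required. Arrdc2, Arl4d, Pdxk, Tma16 and Pnisr fell by more in oligodendrocytes than in endothelial cells (differences of -0.55, -0.57, -0.36, -0.49 and -0.38, adjusted p = 3.9e-05 to 0.012).

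The next genes are the largest rises, after Gm42418 and Lars2, among genes at 50 CPM or more that were not set aside for a far higher level in another class; 53 genes of any level rose by 1 or more on the log2 scale. Hist1h1c, a linker histone, went from 99.3 and 85.0 to 126 and 137 CPM (log2 fold change 0.57, SE 0.0624, adjusted p = 1.1e-07), and its rise exceeded that in endothelial cells by 0.48 (adjusted p = 0.0051). Brd2, a bromodomain protein, went from 203 and 225 to 312 and 295 CPM (log2 fold change 0.57). Atf4, the transcription factor of the integrated stress response, went from 114 and 119 to 165 and 155 CPM (log2 fold change 0.51, adjusted p = 1.7e-08), and Ddit3, its target, rose by 0.29. Tiparp, an ADP-ribosyltransferase, rose by 0.57, Topors, a SUMO and ubiquitin ligase, by 0.48, Chka, choline kinase, by 0.47, and Taf1d, of the RNA polymerase I machinery, by 0.45. Brd2, Atf4, Tiparp, Topors, Chka and Taf1d also rose in endothelial cells, by 0.19 to 0.34. Gadd45b rose (70.9 and 73.8 to 126 and 121 CPM, log2 fold change 0.84) and Cdkn1a fell (log2 fold change -0.62), but both were over 15 times higher in another cell class, and the part of free RNA in their levels was not tested. On this ground 25 of the 660 genes open to naming, 23 higher and 2 lower, were set aside.

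**Figure D3:**
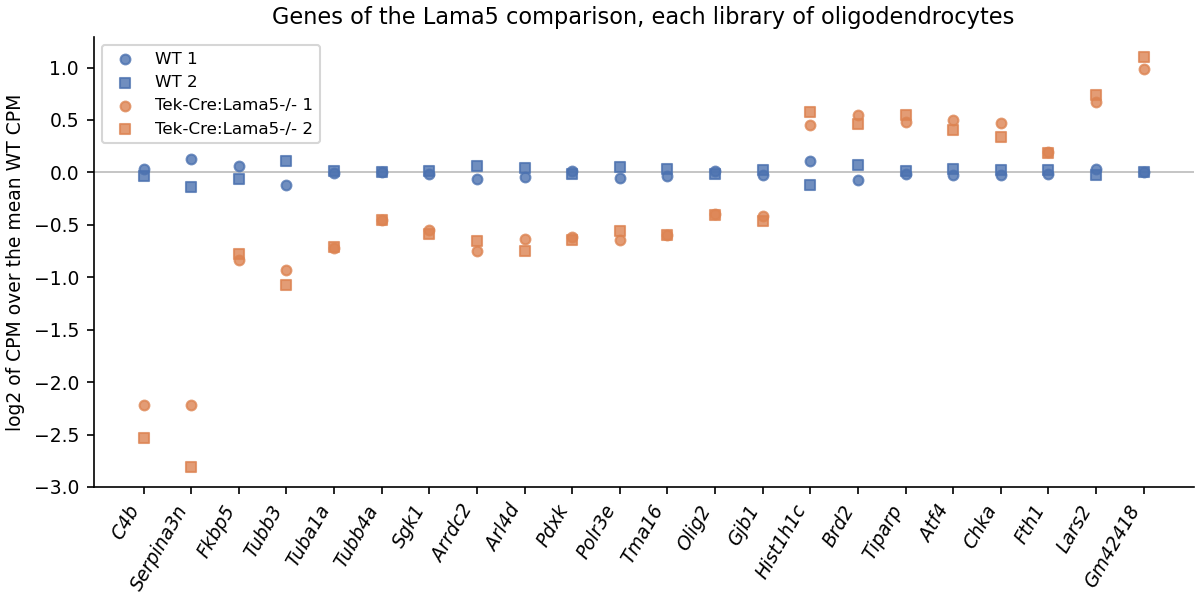
Level of named genes in each library of the Lama5 experiment as log2 of its CPM over the mean CPM of both WT libraries (y axis), with genes on the x axis. WT points lie near 0; both Lama5 KO points lie below all WT points from C4b to Gjb1 and above them from Hist1h1c to Gm42418.

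The myelin genes changed little. Counts from edgeR in this and the following gene lists stand beside 10.3% called over all genes, 5.21% higher and 5.05% lower. Counts from DESeq2 stand beside its 413 of 18338 genes. Of 26 genes of the myelin membrane and sheath, 12 fell, 2 rose and 12 did not pass the test, and the list's median log2 fold change was -0.05 against -0.0020 over all genes. Without the 4 genes that chose the cells, 10 of 22 fell and 2 rose. Mbp was at 4499 and 4637 CPM in WT and 4312 and 4282 CPM in Lama5 KO (log2 fold change -0.03, SE 0.021, adjusted p = 0.46). Its Lama5 KO CPM lay a little below the WT CPM, and the fit, which uses the TMM library scaling, put the difference near 0. The part of Gm42418 in this gap was not tested. Cnp, a cyclic nucleotide phosphodiesterase, did not pass either (-0.02, adjusted p = 0.62). The members that fell did so by 0.28 or less, led by Pllp, the membrane protein plasmolipin (744 and 755 to 580 and 605 CPM, log2 fold change -0.28, adjusted p = 8.4e-08), with Hapln2, a link protein of nodes (-0.22), Qdpr, dihydropteridine reductase (-0.21), Opalin (-0.11) and Cryab, a small heat shock protein (-0.09). Mal (0.10) and the tetraspanin Cd9 (0.11) rose.

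Genes of contact with axons and of gap junctions were mostly lower. Of 12, 8 fell, 1 rose and 3 did not pass, with a median of -0.13. Gjb1, connexin 32, was at 199 and 206 CPM in WT and 152 and 147 CPM in Lama5 KO (log2 fold change -0.38, SE 0.0456, adjusted p = 7.6e-07). The connexin gene Gjc3 (-0.13) fell as well, together with the adhesion genes Cntn2 (-0.10), Ninj2 (-0.21) and Jam3 (-0.13) and the receptor genes Gpr37 (-0.16) and Adora1 (-0.24). The riser was Adgrg1, an adhesion receptor of precursor cells (25.5 and 25.6 to 37.6 and 37.0 CPM), whose level was 8.29 times higher in another class. Kcna1, an axonal-type potassium channel gene, fell by 0.31. DESeq2 called 4 of the 12 lower and 1 higher.

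Among 14 transcription factors of the lineage, 3 fell and 2 rose, and DESeq2 called 3 lower and 1 higher. Olig2, which specifies the lineage, was at 243 and 238 CPM in WT and 182 and 181 CPM in Lama5 KO (log2 fold change -0.35, SE 0.0418, adjusted p = 7.6e-07), and both Lama5 KO libraries were lower. Olig1 (-0.19) and Nkx6-2 (-0.13), regulators of maturation, also fell. Sox10, the activator of myelin genes, went from 199 and 195 to 218 and 206 CPM (0.16, adjusted p = 0.011), and Zeb2 rose by 0.18. Of the 18 genes of precursors and newly formed cells, 13 could be tested, and 2 fell and 2 rose. Enpp6, the choline phosphodiesterase of newly formed oligodendrocytes, fell (138 and 148 to 107 and 96.6 CPM, log2 fold change -0.43, adjusted p = 3.9e-06), as did Tubb4a, while Fyn (0.23) and Sirt2 rose. Gpr17, the receptor of committed precursors, was at 2.88 to 6.99 CPM and did not pass (adjusted p = 0.083).

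Lipid and metabolic genes gave small and mostly downward calls. Of 18 tested genes of myelin lipid synthesis, 5 fell and 2 rose (median -0.08), and DESeq2 called 3 lower and 1 higher. Aspa, aspartoacylase, which frees acetate for lipids, went from 743 and 747 to 577 and 582 CPM (log2 fold change -0.30, SE 0.0288, adjusted p = 7.9e-09), and Fa2h, fatty acid 2-hydroxylase, fell by 0.18. Fads1, a fatty acid desaturase, rose by 0.40 and Fasn, fatty acid synthase, by 0.16. Of 21 genes of cholesterol synthesis, 3 fell, among them Dhcr7 (-0.40) and Hmgcs1 (-0.17), and 1, Pmvk, rose (0.18, adjusted p = 0.046). The Pmvk call was lost with DESeq2, with no low-count filter and on leaving out any of the 4 libraries. Of 17 tested genes of metabolic support, iron and antioxidant defence, 5 fell, including Ldhb, lactate dehydrogenase B (-0.37), and Glul, glutamine synthetase (-0.25), and 2 rose. The risers were the ferritin chains Fth1 (19244 and 19749 to 22330 and 22091 CPM, log2 fold change 0.25, SE 0.0184, adjusted p = 3.7e-11) and Ftl1 (0.21). Fth1 rose by 0.29 and Ftl1 by 0.22 in endothelial cells too. Slc16a1, the lactate transporter MCT1, did not pass (129 and 130 against 122 and 128 CPM, adjusted p = 0.95).

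Laminin receptors and chains are the genes closest to the deleted protein. Of 18 receptor and signalling genes, 14 could be tested, and 1, Fyn, the kinase downstream of integrins (62.3 and 57.3 to 70.3 and 64.9 CPM, log2 fold change 0.23, adjusted p = 0.035), rose and 1, Lims1, a focal adhesion adaptor (-0.25, adjusted p = 0.022), fell. That is 14.3% of those tested, beside the 10.3% of all genes, and with DESeq2, without the first Lama5 KO library or without the second WT library 0 of the list passed. Itgb1, the integrin beta 1 chain, was at 140 and 147 CPM in WT and at 151 CPM in both Lama5 KO libraries (log2 fold change 0.14, SE 0.0488, adjusted p = 0.075). Dag1, dystroglycan, was at 33.2 and 32.5 against 28.7 and 26.5 CPM (-0.20, SE 0.0982, adjusted p = 0.24). Itga6 was at 2.28 to 4.54 CPM in the 4 libraries, 171 times lower than in another class. The part of background RNA in this level was not tested. Of 11 laminin chains, 3 had enough UMIs to test, and 0 passed in edgeR and in DESeq2. Lama2, the alpha 2 chain, was at 21.8 and 21.1 CPM in WT and 20.2 and 22.6 CPM in Lama5 KO (log2 fold change 0.06, SE 0.116, adjusted p = 0.84). With 1000 UMIs per cell, it was found in 1.47% to 2.58% of oligodendrocytes and 0.114% to 0.141% of endothelial cells of that experiment.

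Transcripts that respond to tissue digestion also moved. Of 22 immediate early and dissociation genes, 12 rose and 4 fell, with a median of 0.18, and DESeq2 called 9 higher and 1 lower. Jun went from 388 and 400 to 446 and 455 CPM (log2 fold change 0.25) and the heat shock gene Hspa1a from 104 and 96.3 to 137 and 122 CPM (0.43), whereas Fos (521 and 637 to 498 and 476 CPM, -0.19) and Egr1 (-0.26) fell. In endothelial cells the list's median was -0.03, and 10 of the 22 genes differed in effect between the classes. Hspa1a and Hspa1b rose in oligodendrocytes and fell in endothelial cells, with differences of 0.66 and 0.95. Many of these genes were several times higher in other classes, Atf3 by 85.7 times and Hspa1a by 21.7 times. Of 15 tested genes of the reactive list, 6 fell (Serpina3n, C4b, Fkbp5, Cdkn1a, Sgk1, Cd63) and 4 rose (Gadd45b, Atf4, H2-K1, Ddit3). Of 5 tested interferon genes, 1, Ifi27, fell by 0.18 and 0 rose, and the call was lost with DESeq2 and on leaving out either Lama5 KO library or the first WT library. Of 77 ribosomal protein genes, a group chosen after its values were seen, 45 rose and 0 fell, with a median of 0.11.

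**Figure D4:**
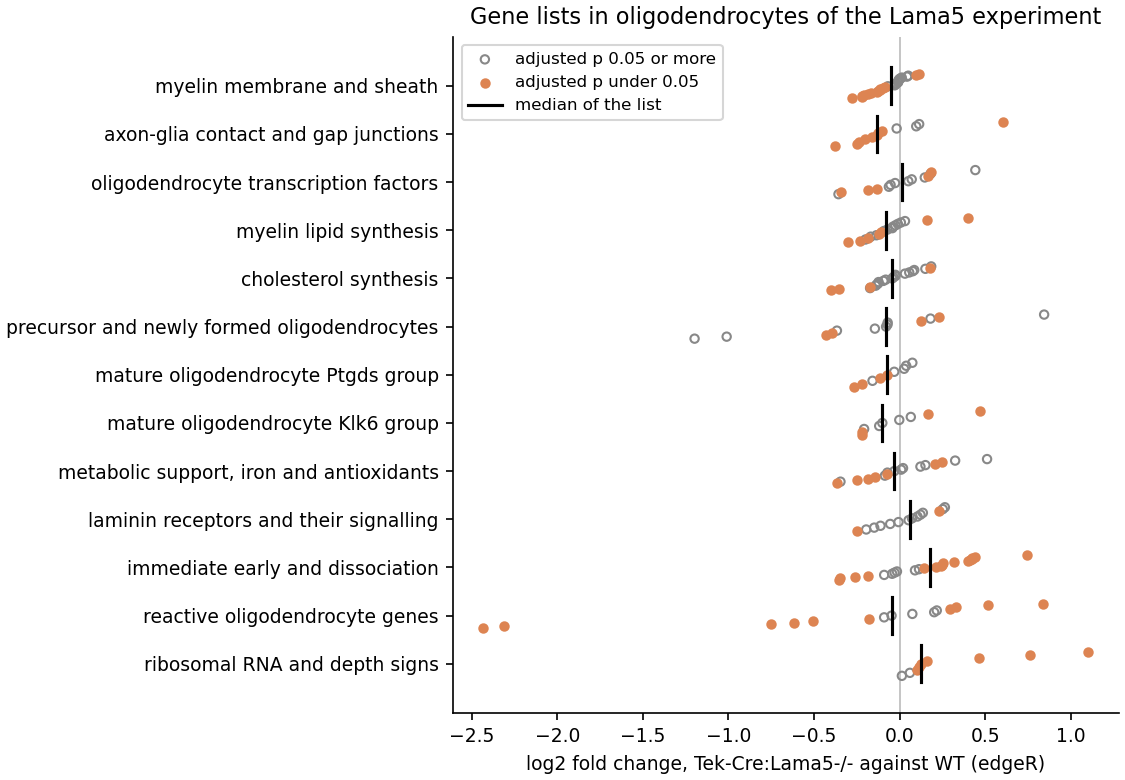
Log2 fold change of each tested gene, Lama5 KO against WT (x axis), in 13 gene lists (rows); filled points passed an adjusted p of 0.05 and black bars are list medians. Most lists lie within 0.5 of 0, the gap junction list is shifted to the left with a median of -0.13, and C4b and Serpina3n stand alone at the left of the reactive list.

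Effects in oligodendrocytes were set against those in other cells of the same libraries. The Lama5 KO effect differed from that in endothelial cells for 245 of 14187 genes (1.73%), 78 of them more positive and 167 more negative in oligodendrocytes. With another scaling (RLE) the split was 128 and 142, so the direction of the split depends on the scaling. Of the 1138 genes called in oligodendrocytes, 161 were among the 245, and 56 of those 161 were also called in endothelial cells in the opposite direction. In endothelial cells alone, 2587 of 13860 genes were called. A test of the difference favours genes with opposite effects, so the 56 do not measure how often the classes disagree. Against astrocytes the effects differed for 431 of 12695 genes (3.4%), 342 more positive and 89 more negative.

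WT oligodendrocytes of the 2 experiments differed in many genes. Of 10750 genes, 1413 (13.1%) passed between the WT pools, 760 higher in the WT of the Lama5 experiment and 653 lower. These tests share the WT libraries of the Lama5 experiment with the comparison above. Gm42418 was 2.44 higher on the log2 scale in the WT of the Lama5 experiment (26642 and 26605 against 5320 and 4772 CPM), AY036118 2.77, Lars2 1.74, Errfi1, a feedback inhibitor of EGF receptor signalling, 1.37 and Dusp1, a stress phosphatase, 1.13. The lowest were S100a8 (-12.52) and S100a9 (-11.78), neutrophil genes that reached 2252 and 2918 CPM in the first WT library of the Lama4 experiment and 3.31 and 5.52 CPM in the second, followed by Mgp (-3.71), Clu (-3.26) and Gstp1 (-2.65). In the stricter cells, 1208 genes passed, and the Mgp difference was -0.49 (adjusted p = 0.35) and that of Clu -1.13 (adjusted p = 0.010), while Gstp1 kept -2.71. C4b (1.97, SE 0.36, adjusted p = 0.0062), Serpina3n (2.15) and Klk6 (2.15) were higher in the WT of the Lama5 experiment, and by 1.89, 2.08 and 2.08 in the stricter cells. Few UMIs stand behind these values in the WT of the Lama4 experiment. C4b had 4 and 25 UMIs there and Serpina3n 5 and 2, and Klk6 was detected in 5 and 4 cells. Of 18 genes of myelin lipid synthesis, 9 were higher and 0 lower (median 0.26), of 21 of cholesterol synthesis 6 were higher and 1 lower (0.37), and 11 of 22 immediate early genes were lower and 4 higher. In the stricter cells these counts were 7 higher and 1 lower, 7 and 1, and 10 lower and 4 higher. Experiment, mice, depth and handling cannot be told apart in this comparison.

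The single Lama4-/- library allowed no test. A gene was noted where its CPM differed from the mean of both WT libraries by at least 1 on the log2 scale after adding 0.5 CPM, and its 95% Poisson interval overlapped neither WT interval, among 1609 genes at 100 CPM or more. Of these, 23 (1.43%) passed, 21 higher and 2 lower in Lama4-/-. The myelin gene Mbp stayed close, at 5549 and 5995 CPM in WT and 5592 CPM in Lama4-/- (5900, 6072 and 6694 CPM in the stricter cells). The higher genes were led by Dapl1 (82.4 and 19.9 CPM in WT, 452 in Lama4-/-), Ttr (98.6 and 80.6, 605), Igfbp6, an insulin-like growth factor binding protein (148 and 48.6, 586), Prg4, lubricin (162 and 65.1, 673), and Clu, clusterin (396 and 74.0, 1336). Nbl1, Fn1 (fibronectin), Mgp (matrix Gla protein), Vim (vimentin) and Hspb1 followed, with log2 ratios of 2.07 to 2.39. The lower genes were the haemoglobins Hba-a1 (1337 and 24.3 CPM in WT, 0 in Lama4-/-) and Hbb-bs (4106 and 58.5, 9.68), which also differed widely between the WT libraries.

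Almost all of the higher genes came with the cells of few gate genes. Among cells with at least 3 of the 4 gate genes, 5 genes passed (0.311%), 3 of them among the 23. Dapl1, Igfbp6 and Prg4 had no UMI in those cells in any of the 3 libraries, and Fn1 was at 16.4 and 8.95 CPM in WT and 0 in Lama4-/-. Those that passed were Hba-a1, Hbb-bs, Ttr (log2 ratio 2.82), 1110004F10Rik (-1.09) and the ribosomal protein gene Rpl39 (-1.01). Ttr was found in 100% of the Lama4-/- oligodendrocytes and in 99.3% of the endothelial cells of the same library, the level of background RNA. Enpp6 was at 69.7 and 76.2 CPM in WT and 158 CPM in Lama4-/-, a log2 ratio of 1.11 that was 0.48 in cells with at least 3 gate genes. For 52 cells of 1 library, the counting intervals leave out the spread between animals and libraries.

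**Figure D5:**
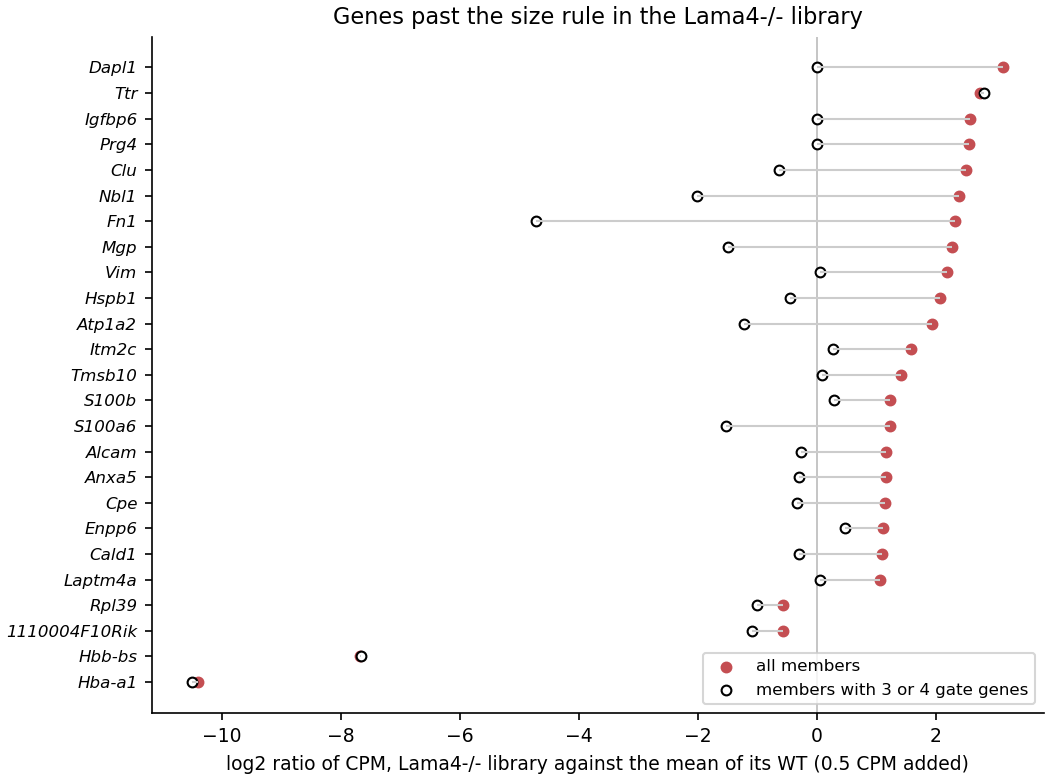
Log2 ratio of CPM (x axis, 0.5 CPM added) of the Lama4-/- library over the mean of its WT libraries for the 25 genes past the size rule in all oligodendrocytes (filled) or in those with 3 or 4 gate genes (open). Of the 21 genes on the right, only Ttr stays past 1 among cells with 3 or 4 gate genes.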

How the data were processed

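Cortex cells of 8 samples were profiled with 10x Chromium 3' v3. The authors deposited 1 matrix of UMI counts per sample, made with Cell Ranger 3.1.0 per the file headers, against mm10 per the submitters' processing notes, which also name Seurat 3.1. The 2 Lama4-/- matrices were identical, so 7 libraries were used. Oligodendrocytes were gated as described in the report, and their counts were summed per library. The members, gene lists and tests were chosen with earlier results of these data known.

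Sums were tested with edgeR 4.0.16 (quasi-likelihood F test, filterByExpr, TMM, Benjamini-Hochberg adjusted p under 0.05) in R 4.3.3, on the libraries compared only. Differences between cell classes were tested as interaction terms with the library as a block. The script was tested on simulated counts. DESeq2 1.42.0, RLE scaling, other cell filters and gates, no low-count filter, a replicate block and leaving out each library were the alternatives. Shares have 95% exact binomial intervals, which cover counting error only; a count of 0 allows up to 3 counts. Cells were thinned to 1000 or 3000 UMIs where depth bears on a share. Depth is given in the report. Of 31053 gene IDs, 30934 matched GENCODE M21 (GRCm38), which gave coordinates; promoter sequence is from RefSeq.

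Genes were named by rules: the 10 largest changes each way at 50 CPM or more without overlap between groups, setting aside genes 10 times higher in another class (Lama5 KO); the 10 largest each way at 100 CPM or more (Lama4-/-); the 5 largest each way at 100 CPM (WT pools) or 50 CPM (interactions); the 20 largest folds over other cells at 200 CPM or more; and any gene of the 16 fixed lists.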

Additional observations from a re-analysis of the deposited data

Results flagged for a closer look

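The Lama5 KO effect differed between oligodendrocytes and endothelial cells in a test of the difference itself. On the log2 scale, the effect in oligodendrocytes was more negative for Apln (-1.47), a vascular peptide ligand, Pcdh11x (-1.23), a protocadherin, Abcb8 (-1.04), a mitochondrial transporter, Irs2 (-1.02), an insulin receptor substrate, and Sgk1 (-0.94). It was more positive for Ttyh1 (1.16), Hspa1b (0.95), the glutamate transporters Slc1a3 (0.94) and Slc1a2 (0.76), and Ndrg2 (0.69). Slc1a3, Slc1a2 and Ndrg2 are astrocyte transcripts. In oligodendrocytes alone, the fold change of Apln (0.12), Slc1a3 (0.09) and Slc1a2 (-0.10) did not pass the test, and the difference came from the endothelial side. Slc1a2 there went from 76.8 and 76.7 to 34.4 and 44.5 CPM, while it was at 5350 to 6427 CPM in astrocytes. Endothelial Apln was high in 1 Lama5 KO library only (9.92 CPM against 2.06 to 2.53 CPM in the other 3). Pcdh11x (-0.44), Abcb8 (-0.39) and Irs2 (-0.27) fell and Ttyh1 (0.21) and Ndrg2 (0.44) rose in oligodendrocytes themselves.

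Against astrocytes, the effect in oligodendrocytes was more negative for Hecw2 (-2.69), Dock10 (-2.61), Rasgrp3 (-2.34), Elmo1 (-2.03) and Slc24a2 (-1.84), and more positive for Lpar1 (3.95), Synm (2.76), Padi2 (2.52), Gsn (2.50) and S100a6 (2.49). For all of these but Dock10 (-0.13) and Rasgrp3 (-0.31), which fell, the oligodendrocyte fold change did not pass the test. The astrocyte levels moved, from 54.7 and 53.4 to 2.38 and 4.62 CPM for Lpar1 and from 9.12 and 5.34 to 28.6 and 53.1 CPM for Dock10. They rest on 301 and 359 WT and 208 and 203 Lama5 KO cells gated by Aldoc, Slc1a2, Gja1 and Slc1a3. Whether the mix of cells passing that gate differed between the groups was not tested.

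In all, 9 genes named for the Lama5 KO had the opposite sign in the Lama4-/- library, a difference that was not tested. The log2 ratio in Lama4-/- was -0.17 for Lars2, -0.34 for Brd2, -0.31 for Atf4, -0.081 for Topors, -0.19 for Chka and -0.093 for Taf1d, which rose in the Lama5 KO. It was 0.21 for Tuba1a, 0.082 for Arl4d and 0.32 for Pdxk, which fell in the Lama5 KO. None of these ratios reached the size of 1 required above, and those of Topors, Taf1d and Arl4d lie near 0. They come from all 52 cells of the library, including those with few gate genes. In the stricter cells, Lars2 was at 138 and 149 CPM in WT and 103 CPM in Lama4-/-.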

How the results depend on the processing

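Over 36 named genes of the Lama5 comparison and 13 alternative settings (468 values), 464 kept their direction and their side of the threshold, 0 reversed, and the other 4 all belong to Klk6. These 36 are not all the named genes. Pmvk, Ifi27, Fyn and Lims1, whose calls were lost in some settings as given above, are not among them. The C4b log2 fold change ranged from -2.47 to -2.16 and that of Serpina3n from -2.75 to -2.16. Against 1138 genes, DESeq2 called 413, RLE scaling 1160, no low-count filter 1205, the narrower and stricter cell sets 1159 to 1167, and leaving out a library 816 to 979. Between WT pools, against 1413, DESeq2 called 570, no filter 2207, and leaving out a library 325 to 1830; without the first or second WT library of the Lama5 experiment the counts were 325 and 459. Against 245 for endothelial cells, no filter called 555, a threshold of 40 per 10000 called 351, and leaving out a library 81 to 261, with 81 and 83 without the first and second WT library. Against 431 for astrocytes, no filter called 609 and leaving out a library 173 to 522, with 183 and 173 without the first and second Lama5 KO library and 270 without the second WT library. For Lama4-/-, against 23 genes, a threshold of 40 per 10000 gave 5, cells with 3 or 4 gate genes gave 5, and leaving out a WT library gave 24 to 25. The share difference was -2.50 to -3.99 points, against -3.24. The replicate numbers share only a number: deviations of same-numbered libraries correlated at -0.25 in the Lama5 comparison and 0.16 between WT pools. With a replicate block, 1313 and 1207 genes passed, and the block moved none of the 36 named genes across the threshold; with crossed numbers as a block, chosen after seeing the data like the set with 3 or 4 gate genes, 1340 passed. Where DESeq2, the filter or a left-out library moved a count, the cause was not tested. The 52 to 98 cells per library of the Lama4 experiment limit what it can show.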
